A study of Mus musculus with 4 samples.

Results

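In this study 9 genes of meiotic recombination were examined in testes taken whole from adult mice, either Azin2 KO or WT. They are Spo11, Prdm9, Dmc1, Meiob, Msh4, Msh5, Hfm1, Tex11 and Mlh3, taken as the genes that the annotation of the Affymetrix Mouse Gene 1.1 ST array pairs with these symbols. All 9 had a value, from 10 probe sets, among 18820 genes with a value of their own. In the KO mice a β-Geo cassette interrupts Azin2, the WT mice carry the intact gene, and the transgenic line was kept on a mixed C57BL/6 background. The labels name no treatment. Each of the 4 arrays, 2 for KO and 2 for WT, was hybridized with a pool of RNA from 3 mice, and the deposited values are normalized log2 signals. The normalized signal of Azin2 was 7.36 and 7.14 in the KO pools, against 10.16 and 9.998 in the WT pools, so that the arrays followed their labels.

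Meiotic recombination begins in early spermatocytes, when programmed double-strand breaks are cut in the chromosomes at hotspots chosen by the histone methyltransferase PRDM9. The broken ends are trimmed to single strands, coated by recombinases and used to invade the homologous chromosome, and a small share of these contacts mature into crossovers that hold homologues together until they separate. Loss of the main factors of these steps arrests mouse spermatocytes or leaves chromosomes without crossovers, and causes male infertility. In whole testis RNA, fewer spermatocytes and less RNA per spermatocyte cannot be told apart.

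The difference between KO and WT testes passed an adjusted p of 0.05 from limma in 0 of the 9 genes and in 0.00531% of all genes. A fold of 1.5 together with an unadjusted p under 0.05 was reached by 0 of the 9 and by 0.0956% of all genes. With no requirement on the fold, 1 of the 9, Msh5, had an unadjusted p under 0.05, as did 3.95% of all genes (1.77% lower in KO, as Msh5, and 2.18% higher). The values of the genotypes did not overlap in 1 of the 9, again Msh5, and in 32.4% of all genes. The median log2 difference, KO minus WT, was 0.0022 over the 9 genes and 0.011 over all genes, and the median absolute difference was 0.051 for the 9 and 0.046 for all genes. A difference smaller than 0.1 was found for 8 of the 9, as for 81.5% of all genes. With each gene at its probe set with the highest mean, 95% confidence intervals were taken as folds of KO over WT. They ran from 0.830 at the lowest bound (Msh5) to 1.18 at the highest (Spo11). The interval of the second probe set of Hfm1 was wider, from 0.821 to 1.23. In 8 of the 9, Msh5 being the exception, the pools of at least 1 genotype lay further apart than the mean levels of the genotypes.

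Because the expression of many of these genes starts with entry into meiosis, the sequence before their start sites was searched for the motif CNCCTCAG, which is bound by the meiotic initiators STRA8 and MEIOSIN in mouse germ cells. RefSeq (GRCm38.p6) windows of 250 bases before a start were at hand for 6 of the 9 genes, as 8 windows, those of Mlh3 overlapping. On either strand, 3 of these 8 windows held the motif, as did 6.42% of the 32851 windows of all genes. They belong to Msh5, to Prdm9, whose other window lacked the motif, and to Hfm1. They are given 5′ to 3′ on the strand of the gene with the motif in capitals.
Msh5 (chr17:35046623-35046872, minus strand): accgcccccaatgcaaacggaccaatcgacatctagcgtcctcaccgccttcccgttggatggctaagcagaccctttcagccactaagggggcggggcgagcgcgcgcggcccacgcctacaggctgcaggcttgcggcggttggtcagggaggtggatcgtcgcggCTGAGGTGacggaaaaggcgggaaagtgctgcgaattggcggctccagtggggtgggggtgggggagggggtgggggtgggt
Prdm9 (chr17:15564355-15564604, minus strand): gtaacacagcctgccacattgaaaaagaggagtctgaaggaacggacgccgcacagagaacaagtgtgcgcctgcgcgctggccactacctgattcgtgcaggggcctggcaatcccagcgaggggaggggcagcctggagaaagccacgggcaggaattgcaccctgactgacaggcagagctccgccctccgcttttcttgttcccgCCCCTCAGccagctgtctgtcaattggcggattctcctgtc
Hfm1 (chr5:106925891-106926140, minus strand): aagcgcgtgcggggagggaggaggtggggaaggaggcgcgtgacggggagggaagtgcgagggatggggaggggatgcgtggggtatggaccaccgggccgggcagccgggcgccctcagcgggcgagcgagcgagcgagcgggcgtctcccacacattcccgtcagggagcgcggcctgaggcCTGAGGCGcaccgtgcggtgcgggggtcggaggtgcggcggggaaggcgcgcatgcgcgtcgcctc
The motif starts 82 bases before the start site in Msh5, 41 in Prdm9 and 66 in Hfm1. The element TCCCGC, which binds the repressor E2F6 that silences germ cell genes in mouse somatic cells, stood in 4 of the 8 windows (Dmc1, Msh5 and both of Prdm9) and in 16.9% of all windows, and in the printed Prdm9 window it shares 1 base with the other motif. The E-box CACGTG was in 0 of the 8 and in 6.02% of all. The ratio of observed to expected CpG dinucleotides was 1.07 for Hfm1, 1.02 and 1.04 for Mlh3 and 0.822 for Msh5. It was 0.563 for the printed Prdm9 window, 0.411 for the other, 0.498 for Dmc1 and 0.347 for Msh4. The median over all windows was 0.374. A match is a description of letters, and binding was not measured.

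**Figure D1:**
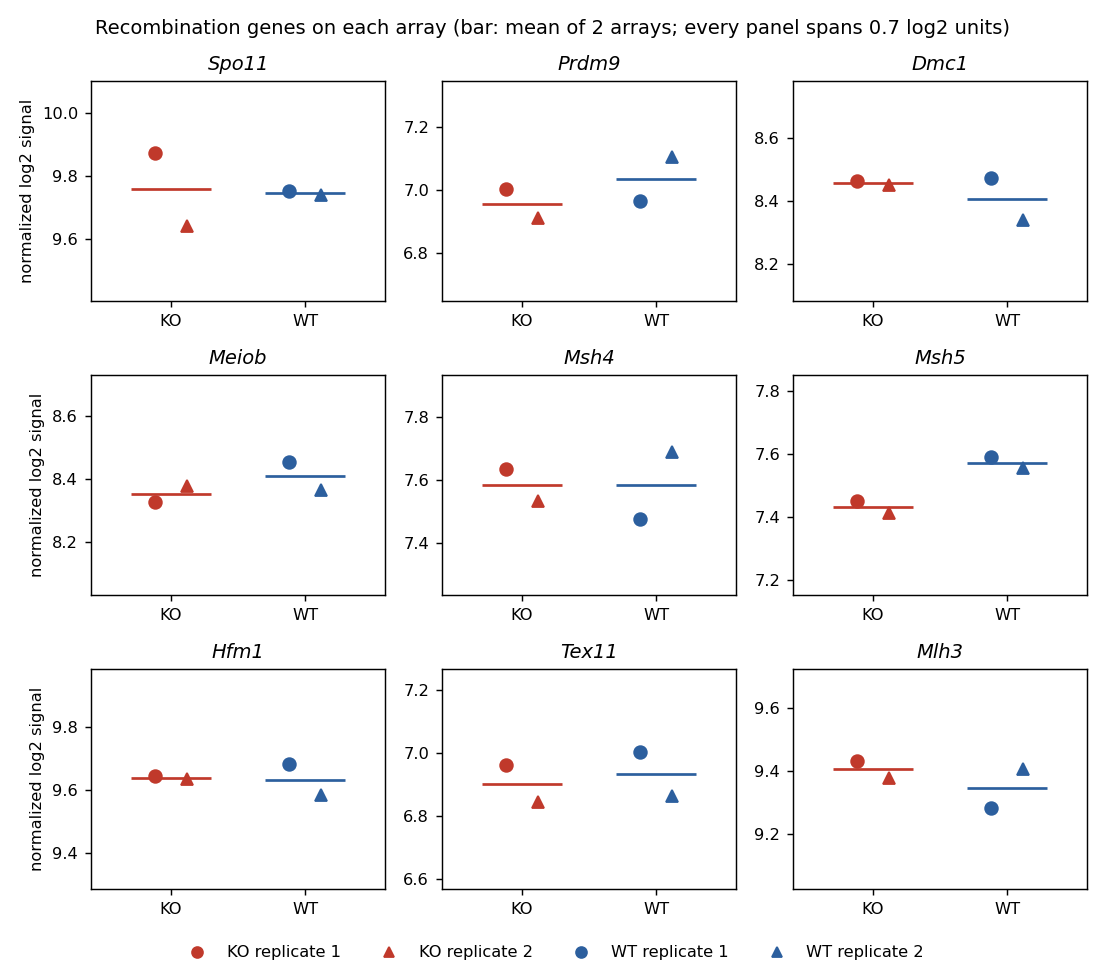
Normalized log2 signal (vertical axis) of the 9 genes on each array, with KO in red on the left and WT in blue on the right, circles for replicate 1 and triangles for replicate 2, and bars for the mean of 2 arrays. Each vertical axis spans the same 0.7 log2 units, and only in Msh5 do the KO and WT points not overlap.

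The genes that place and cut the breaks were examined first. Spo11, the topoisomerase-like enzyme that cuts the DNA, had normalized log2 signals of 9.87 and 9.64 in the KO pools, against 9.75 and 9.74 in the WT pools. Both WT pools lay between the KO pools, which were 0.233 apart, the widest gap within a genotype among the 9 genes when each is taken at its probe set with the highest mean. Its log2 difference was 0.012 (95% confidence interval -0.21 to 0.24, unadjusted p = 0.899 and adjusted p = 0.9995 from limma). Prdm9, whose zinc fingers read the hotspot sequence, had signals of 7.003 and 6.91 in KO testes and of 6.97 and 7.11 in WT testes. The groups overlapped, as WT replicate 1 lay below KO replicate 1, and the log2 difference was -0.079 (interval -0.26 to 0.10, unadjusted p = 0.318 from limma). Values were at hand for 5 other genes of this step, out of 8 listed, and 0 of the 5 passed either threshold. They ran from -0.0049 for Rec114, a partner of the break machinery, through 0.0097 for the chromatin remodeller Hells, 0.011 for Iho1 and 0.053 for Mei1, to 0.18 for Mei4. Mei4, which forms a complex with REC114 and IHO1 on chromosome axes, had signals of 6.01 and 5.87 in KO pools and of 5.81 and 5.72 in WT pools. The KO pools thus lay above the WT pools (unadjusted p = 0.0548 from limma), but each signal was below the median of its array (6.08 to 6.11). Over all genes, both KO pools lay above both WT pools in 20.3% and below them in 12.2%.

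Dmc1 and Meiob act on the single-stranded ends. Dmc1, the meiosis-specific recombinase that carries out strand invasion between homologues, had signals of 8.46 and 8.45 in KO testes, against 8.47 and 8.34 in WT testes. The KO pools were 0.014 apart and lay between the WT pools, with a log2 difference of 0.051 (interval -0.11 to 0.22, unadjusted p = 0.465 from limma). Meiob encodes a single-strand binding protein that works with SPATA22 and with replication protein A. Its signals were 8.33 and 8.38 in KO testes and 8.45 and 8.37 in WT testes, and KO replicate 2 lay between the WT pools (log2 difference -0.056, interval -0.20 to 0.090, unadjusted p = 0.368 from limma). In RefSeq the extent of Meiob overlaps that of Hagh. Other entries overlap each of the remaining genes except Dmc1, among them Gm52318 over Msh5. Whether probes lie in any shared stretch was not examined. Of 28 other genes of this step, 23 had values, 12 above 0 and 11 below, with a median log2 difference of 0.0006, and 0 of the 23 passed an adjusted p of 0.05 or a fold of 1.5. The only one with an unadjusted p under 0.05 was Rpa3, the small subunit of replication protein A, at 7.59 and 7.73 in KO pools, against 7.49 and 7.19 in WT pools. Its groups did not overlap, but the WT pools lay nearly as far apart as the genotypes (log2 difference 0.31, interval 0.019 to 0.61, unadjusted p = 0.0411 and adjusted p = 0.9995 from limma). The other subunits were at -0.053 (Rpa1) and 0.046 (Rpa2), and were chosen after their values were seen. Next highest were the strand exchange helper Rad54l at 0.15 and Sfr1, a cofactor of recombinases, at 0.088. The lowest were Atm, the kinase that limits break number, at -0.11, 4930432K21Rik (Brme1, which helps BRCA2 bring recombinases to breaks) at -0.093, and Nbn, of the complex that trims break ends, at -0.081.

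Of the 9 genes, 5 serve crossover formation. Msh4 and Msh5 encode the MutS homologues whose heterodimer clamps onto recombination intermediates. Msh5 had signals of 7.45 and 7.41 in KO pools, against 7.59 and 7.55 in WT pools. Each KO pool was below each WT pool, and the pools of a genotype were 0.036 apart in KO and 0.035 in WT. The log2 difference was -0.14 (standard error 0.050, interval -0.27 to -0.012), which puts the KO signal at 90.7% of the WT signal, with an unadjusted p of 0.0373 and an adjusted p of 0.9995 from limma. The count of 1 in 9 genes with KO wholly below WT stands beside 12.2% of all genes. The unadjusted p of Msh5 from limma was 0.101 when the spread was allowed to depend on intensity. It was 0.0563 when arrays were centred on their medians and 0.0726 with the replicate number as a block. It was under 0.05 in 5 of 13 alternatives, among them limma after quantile normalization (0.0477) and the ordinary equal-variance test (0.0304). When each array was left out, the log2 difference of Msh5 lay between -0.16 and -0.12. Its adjusted p was no lower than 0.920 under any alternative. Its partner Msh4 had signals of 7.64 and 7.54 in KO testes, against 7.48 and 7.69 in WT testes. The KO pools lay between the WT pools, which were 0.212 apart, and the log2 difference was 0.0022 (interval -0.23 to 0.23, unadjusted p = 0.981 from limma). Whether the differences of Msh4 and Msh5 differ from each other was not tested.

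Hfm1, the helicase that stabilizes intermediates bound for crossovers, is the only one of the 9 with more than 1 probe set. The probe set with the higher mean had signals of 9.64 and 9.63 in KO pools, against 9.68 and 9.58 in WT pools (log2 difference 0.0062, interval -0.14 to 0.15, unadjusted p = 0.917 from limma). The other probe set had 9.07 and 9.11 in KO pools and 9.24 and 8.92 in WT pools, a difference of 0.0078 (interval -0.28 to 0.30). In both, the KO pools lay between the WT pools, and in both WT replicate 1 was the highest array. The gap between the WT pools was 0.099 in the first probe set and 0.323 in the second.

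Tex11, an X-linked gene whose mutations cause meiotic arrest and infertility in men and mice, had signals of 6.96 and 6.84 in KO testes, against 7.005 and 6.86 in WT testes. The replicates of each genotype were about as far apart as those of the other (0.12 in KO and 0.141 in WT), and the log2 difference was -0.030 (interval -0.22 to 0.16, unadjusted p = 0.706 from limma). Mlh3, of the MutL endonuclease that acts at crossover sites, had signals of 9.43 and 9.38 in KO testes, against 9.28 and 9.41 in WT testes. WT replicate 2 lay between the KO pools and WT replicate 1 below them, with a log2 difference of 0.061 (interval -0.10 to 0.23, unadjusted p = 0.382 from limma).

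Of 20 other genes of crossover formation and resolution, 15 had values, 7 above 0 and 8 below, with a median log2 difference of -0.0064. An adjusted p of 0.05 or a fold of 1.5 was passed by 0 of the 15, and 0 had an unadjusted p under 0.05 from limma. The highest were Shoc1, which marks intermediates for crossing over, at 0.14, the kinase gene Cdk2 at 0.12, and Pms2, a mismatch repair relative of Mlh3, at 0.11. In these 3 genes, which are named because they were the highest, both KO pools lay above both WT pools, as in 20.3% of all genes. The lowest were Prr19, which acts with CNTD1 at crossover sites, at -0.10, the nuclease scaffold gene Slx4 at -0.075 and M1ap at -0.071. Over the 43 other pathway genes together, 23 were above 0 and 20 below, with a median of 0.0051, and both KO pools lay above both WT pools in 9 (20.9%, beside 20.3% of all genes) and below them in 2 (4.65%, beside 12.2% of all genes). As 13 of 56 listed genes had no value of their own, these counts do not cover the whole pathway.

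**Figure D2:**
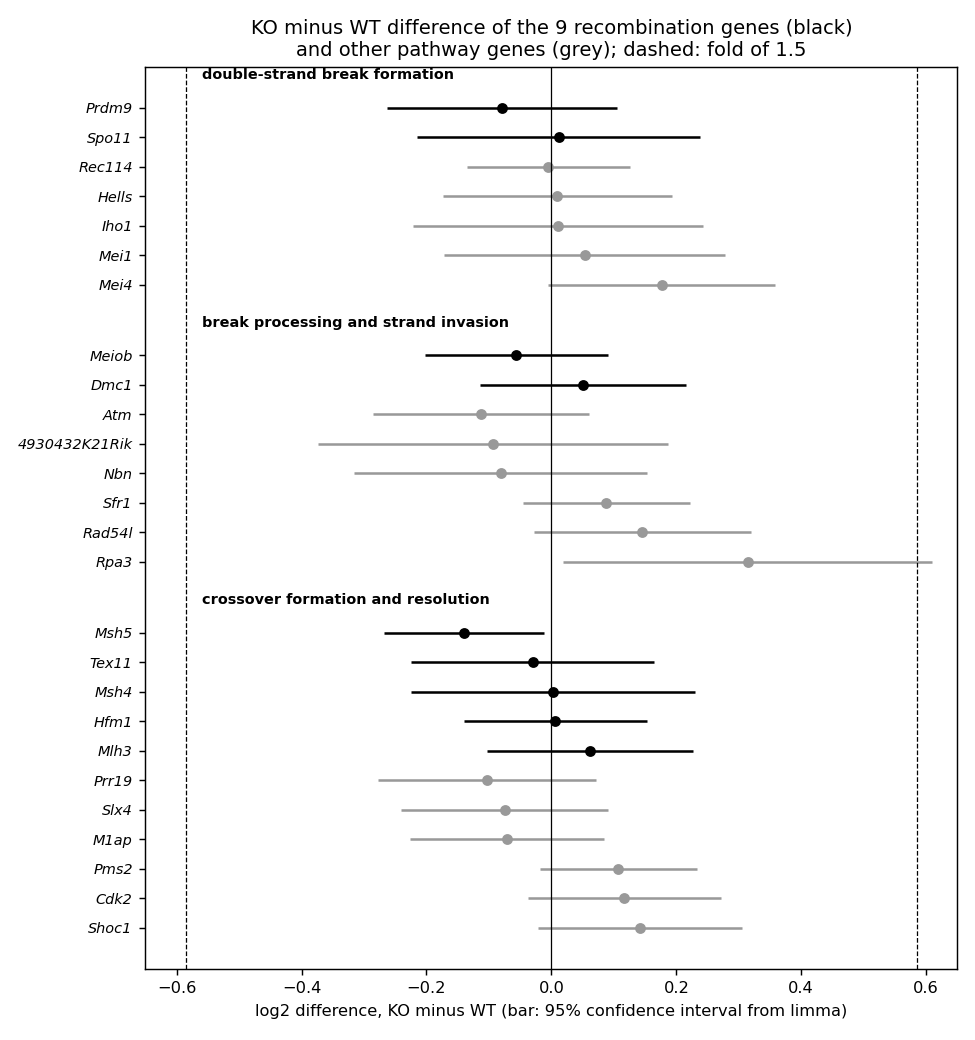
Log2 difference, KO minus WT, along the horizontal axis for the 9 recombination genes in black and the pathway genes named beside them in grey, by step, with bars for 95% confidence intervals from limma and dashed lines at a fold of 1.5. Among the black intervals that of Msh5 (-0.27 to -0.012) is the only one that leaves out 0, and all 9 lie inside the dashed lines.

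**Figure D3:**
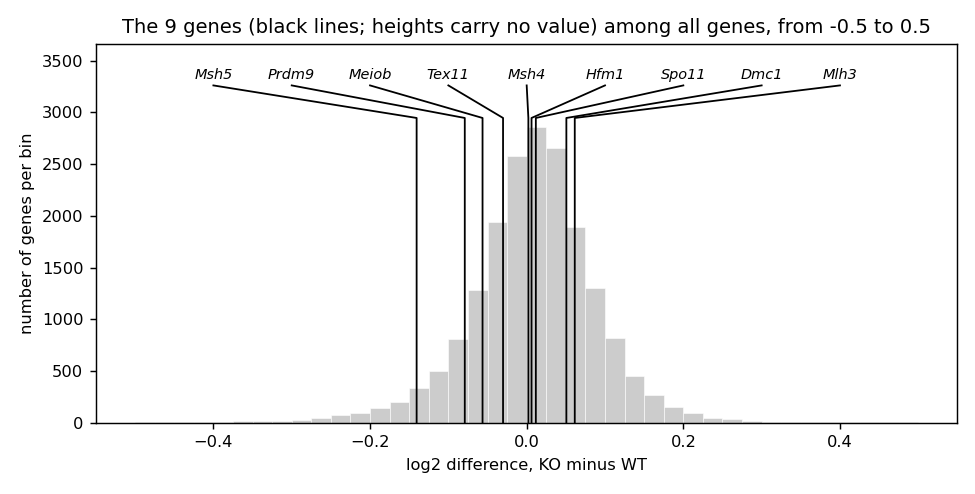
Number of genes (vertical axis) by log2 difference, KO minus WT (horizontal axis, in bins), with a black line for each of the 9 genes. The lines run from -0.14 (Msh5) to 0.061 (Mlh3), and 49 genes lie outside the range shown. All lines but that of Msh5 lie within 0.1 of 0, as do 81.5% of all genes.

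By array, KO replicate 1 was above KO replicate 2 in 8 of the 9 genes, Meiob being the exception. The same order held in 67.4% of the 43 other pathway genes and in 49.3% of all genes. WT replicate 1 was above WT replicate 2 in 6 of the 9, in 60.5% of the other pathway genes and in 49.7% of all genes. Whether the 9 genes moved together across arrays was not tested. Relative to each gene's own mean over the 4 arrays, their average was 0.024 in KO replicate 1 and -0.044 in KO replicate 2, against 0.012 in WT replicate 1 and 0.0078 in WT replicate 2. KO replicate 2 was the lowest array for Spo11, Prdm9, Msh5 and Tex11, WT replicate 1 for Msh4 and Mlh3, WT replicate 2 for Dmc1 and Hfm1, and KO replicate 1 for Meiob. The median log2 difference of the 9 was -0.049 when KO replicate 1 was left out and 0.030 when KO replicate 2 was, on either side of 0. Among the other pathway genes, the profiles nearest to this average were those of Rec114, Top3a and Mcm9. Top3a acts on joined intermediates with BLM, and Mcm9 is a helicase gene. The root mean square distances of these profiles over the 4 arrays were 0.0092, 0.019 and 0.026 log2 units. The distance is not scaled to the spread of a gene, so genes that vary little lie near so flat an average. Whether these genes behave alike was not tested.

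**Figure D4:**
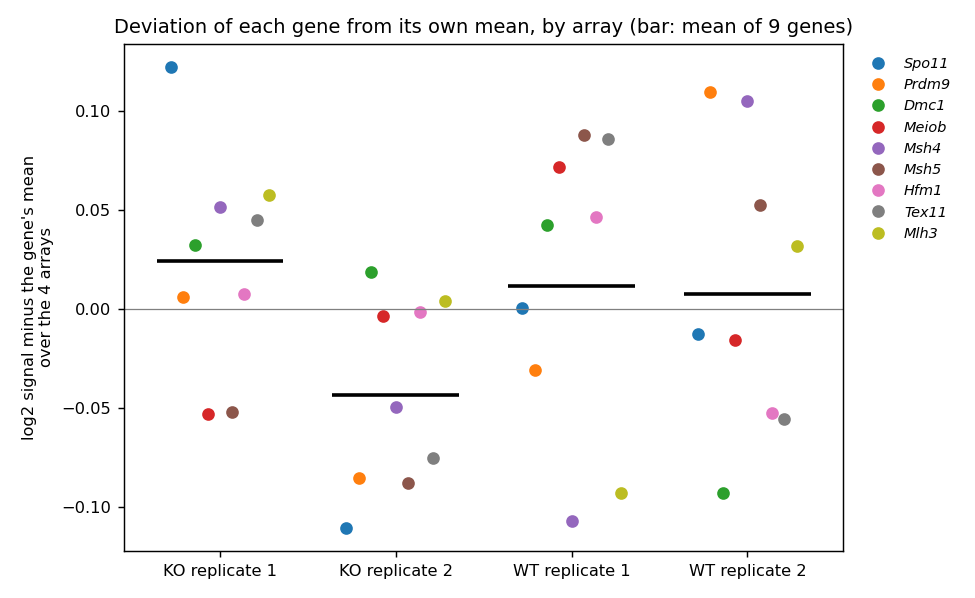
Log2 signal minus the mean of the gene over the 4 arrays (vertical axis), for each array, with a coloured point for each of the 9 genes and a bar for their average. The bar is lowest in KO replicate 2 (-0.044), and on each array genes lie on both sides of 0.

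Markers of the cells that express these genes, and of other cells a testis sample can hold, were measured on the same arrays. The 16 measured markers of leptotene to pachytene spermatocytes, of 18 listed, had mean log2 signals of 10.53 and 10.49 in KO pools, against 10.47 and 10.48 in WT pools, with a median log2 difference of 0.025. The medians were 0.014 for 12 markers of late spermatocytes, -0.0085 for 17 of spermatids and 0.052 for 14 of spermatogonia. In the 4 germ cell lists 0 genes passed an adjusted p of 0.05 from limma. An unadjusted p under 0.05 was found for 1 of the 16 leptotene to pachytene markers and 1 of the 14 of spermatogonia. Both were higher in KO, beside 2.18% of all genes. It was found for 0 of the late spermatocyte and spermatid markers. Array medians lay between 6.08 and 6.11. The mean of the epididymis markers was between 5.05 and 5.09, below these medians on every array, and that of the adipocyte markers between 5.57 and 5.77. The Leydig cell markers were lowest in KO replicate 1, at a mean of 10.04, against 10.20 to 10.33 on the other arrays. The median log2 difference was -0.077 for 7 Leydig cell markers, out of 9 listed, and 0.057 for 15 Sertoli cell markers. The median log2 difference was 0.019 for 6 markers of peritubular myoid cells, -0.15 for 9 of macrophages and -0.065 for 6 of endothelial cells. It was -0.028 for 5 adipocyte, -0.027 for 6 epididymis and 0.070 for 2 red blood cell markers, the last out of 5 listed. In these 8 lists 0 genes passed an adjusted p of 0.05 from limma. Only Fabp4, of the adipocyte list, had an unadjusted p under 0.05 from limma, being lower in KO. Of all genes, 1.77% were lower at that p.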

How the data were processed

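RNA from whole testes, in pools from 3 mice, was hybridized to 4 arrays, 2 for each genotype. The authors deposited log2 signals, 1 for each probe set, made with RMA. This method subtracts background, gives all arrays the same distribution of intensities and combines the probes of a set. The submitters' processing notes name Partek 6.13.1224. The labels describe labelled cRNA and the paper's methods cDNA. Genome build and summarization level are not given in the sources used here.

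Names of probe sets came from the platform annotation, with symbols updated through gene identifiers, and the probe set with the highest mean gave the gene value. The comparison of KO with WT used limma 3.58.1 under R 4.3.3 (lmFit and eBayes, two-sided, no filter) over the 23099 named probe sets of 35556, with Benjamini-Hochberg adjustment over all of them. Intervals are at 95% and unadjusted for the number of genes. The sources used here do not say whether the 2 pools of a genotype hold different mice or separate litters. The p-values rest on the spread between these pools, which limma shares between probe sets. With 2 arrays a group an exact permutation test cannot go below p = 0.333 and was not used, and the number of arrays limits the precision. The fit was tested on simulated data.

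The 9 genes, the pathway and marker lists and the tests were chosen with earlier results of these data known. Of the pathway lists, the text names the 3 largest differences in each direction, any gene at an unadjusted p under 0.05 and the 3 nearest profiles. Alternatives were an intensity trend, a robust prior, the ordinary equal-variance test, quantile normalization, centring, the removal of dim probe sets, a test of the whole table, the replicate number as a block, leaving out 1 array at a time, the mean over a gene's probe sets, and other folds. Promoter windows are RefSeq, GRCm38.p6.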

Additional observations from a re-analysis of the deposited data

How the results depend on the processing

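The counts of the 9 genes past an adjusted p of 0.05 and past a fold of 1.5 were 0 under all 13 alternative fits, and the second count was also 0 at folds of 1.2 and 2. For the other pathway genes both counts were 0 as well, except that at a fold of 1.2 the second was 1 (Rpa3). With a replicate block, at the same log2 differences, these counts were 0 and the unadjusted p of Msh5 was 0.0726. Deviations of same-numbered arrays from their group means correlated at -0.082 over probe sets, which does not pair them. With 1 array left out at a time, the array left alone is assumed to have the spread of the other genotype. The median log2 difference of the 9, 0.0022 with all 4 arrays, was then lowest (-0.049) after KO replicate 1 was dropped. It was highest (0.030) after KO replicate 2 was dropped. These shifts cannot be weighed against the spread of 0.034 within genotypes in the average of the 9. That spread comes mainly from the gap between the same KO replicates. The log2 difference changed sign for Spo11 (-0.10 to 0.13), Msh4 (-0.10 to 0.11), Dmc1 (-0.017 to 0.12), Hfm1 (-0.043 to 0.056), Mlh3 (-0.0011 to 0.12) and Tex11 (-0.10 to 0.041). No other alternative changed a sign. Only quantile normalization, centring and, for Hfm1, the mean over probe sets altered the log2 difference there. In the rest a sign could not change. Msh5, Meiob and Prdm9 were below 0 in every fit that tested them. With 1 array left out, however, Prdm9 ran from -0.15 to -0.0086 (without WT replicate 2) and Meiob from -0.10 to -0.013 (without WT replicate 1). Over 115 values of single genes, the sign changed in 8, all of them with 1 array left out, and the largest size was 0.16. Msh5 had an unadjusted p under 0.05 in 5 of 13 alternatives, among them quantile normalization (0.0477) and the ordinary test (0.0304). Prdm9 and Tex11 were below the filter on dim probe sets and have no value there. Signal over background is not measured in the deposited values.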
